A study of Mus musculus with 3 samples.

Results

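The genes described here are 32 mouse genes of the germline, of meiosis and of the piRNA pathway, found by their Entrez gene number among 17997 genes listed in at least 1 of 3 RNA-seq libraries of embryonic stem cells. Of the 32 genes, 31 were listed in some library and 26 reached 1 FPKM (fragments scaled to transcript length and library size) in at least 1 library, which is the level counted as measured. The cells were 46C mouse embryonic stem cells (strain 129), grown in serum with leukemia inhibitory factor on gelatin. The control culture had received the empty vector PB and was taken at passage 2 after the vector was introduced. The other cultures had received Lef1 in the same vector (PB-Lef1), which encodes a transcription factor that acts with beta-catenin, and were taken at passage 2 and passage 5. Below, P2 and P5 after the culture's name give the passage. Each group has n = 1 library, so differences describe these libraries, no test between conditions was made, and every interval covers counting error only. The labels do not say whether a culture was a clone or a pool of cells.

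Germ cells carry out meiosis, in which homologous chromosomes are held by cohesin complexes, paired by the synaptonemal complex and recombined after programmed DNA breaks. Male germ cells also make piRNAs, small RNAs that guide PIWI proteins such as Piwil2 to silence transposons, with Tudor-domain proteins and RNA helicases as partners. Many of these genes are kept low in somatic cells by promoter DNA methylation, and in embryonic stem cells by a Polycomb complex that contains E2f6, Max and Mga. Embryonic stem cells transcribe a number of them at low level.

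Lef1 itself was at 1.49 FPKM in empty vector P2, 135 FPKM in Lef1 P2 and 214 FPKM in Lef1 P5, in the order the labels give. The expected counts (estimated reads per gene) summed to between 9170554 and 9380813 per library. The 9 embryonic stem cell markers were all at 1 FPKM or more in every library. They summed to 3110 FPKM in empty vector P2, 2347 FPKM in Lef1 P2 and 2967 FPKM in Lef1 P5. By non-overlapping counting intervals, 6 were lower in Lef1 P2 than in empty vector P2 (against 19.5% of all measured genes). By the same measure 1 was higher (against 33.0% of all). Endoderm markers moved with the library: the 13 measured of 15 summed to 182 FPKM in empty vector P2, 1887 FPKM in Lef1 P2 and 499 FPKM in Lef1 P5, while the liver and visceral endoderm genes Afp and Ttr were listed in none. Of 15 spermatid genes 2 were measured, and the protamine genes Prm1 and Prm2, which define maturing sperm, were listed in none. Of 13 genes of the somatic gonad 3 were measured, summing to 2.50 to 5.11 FPKM.

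Most measured germline genes had their highest level in Lef1 P2 and their lowest in Lef1 P5. This order held for 17 of the 26 measured genes (65.4%), against 27.4% of the 12894 genes measured in the series. The genes were chosen with earlier results of these data known. That choice can itself shape the shares and medians set against all genes, here and below, so they are descriptions only. With libraries rescaled by median-of-ratios or by TMM (trimmed mean of M values), the order held for 15 and 16 of the 26, against 18.7% and 19.9% of all. Lef1 P5 was the lowest of the 3 libraries for 22 of the 26 (84.6%, against 38.9% of all). The exceptions were Kit, Prdm1, Zp3 and Tex19.1. The median level of the 26 genes was 4.04 FPKM in empty vector P2, 6.34 FPKM in Lef1 P2 and 2.48 FPKM in Lef1 P5, and their levels summed to 194, 236 and 133 FPKM. The count of 26 depends on the 1 FPKM level: Slc25a31 and Dpep3 reached it only in Lef1 P2, where they were called higher. Stra8 and Prdm1 lay just inside, with highest levels of 1.78 and 1.71 FPKM, and Nanos3 and Tdrd1 just outside, at 0.98 and 0.88 FPKM. In bulk RNA, fewer cells that express a gene and less RNA per cell cannot be told apart.

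**Figure D1:**
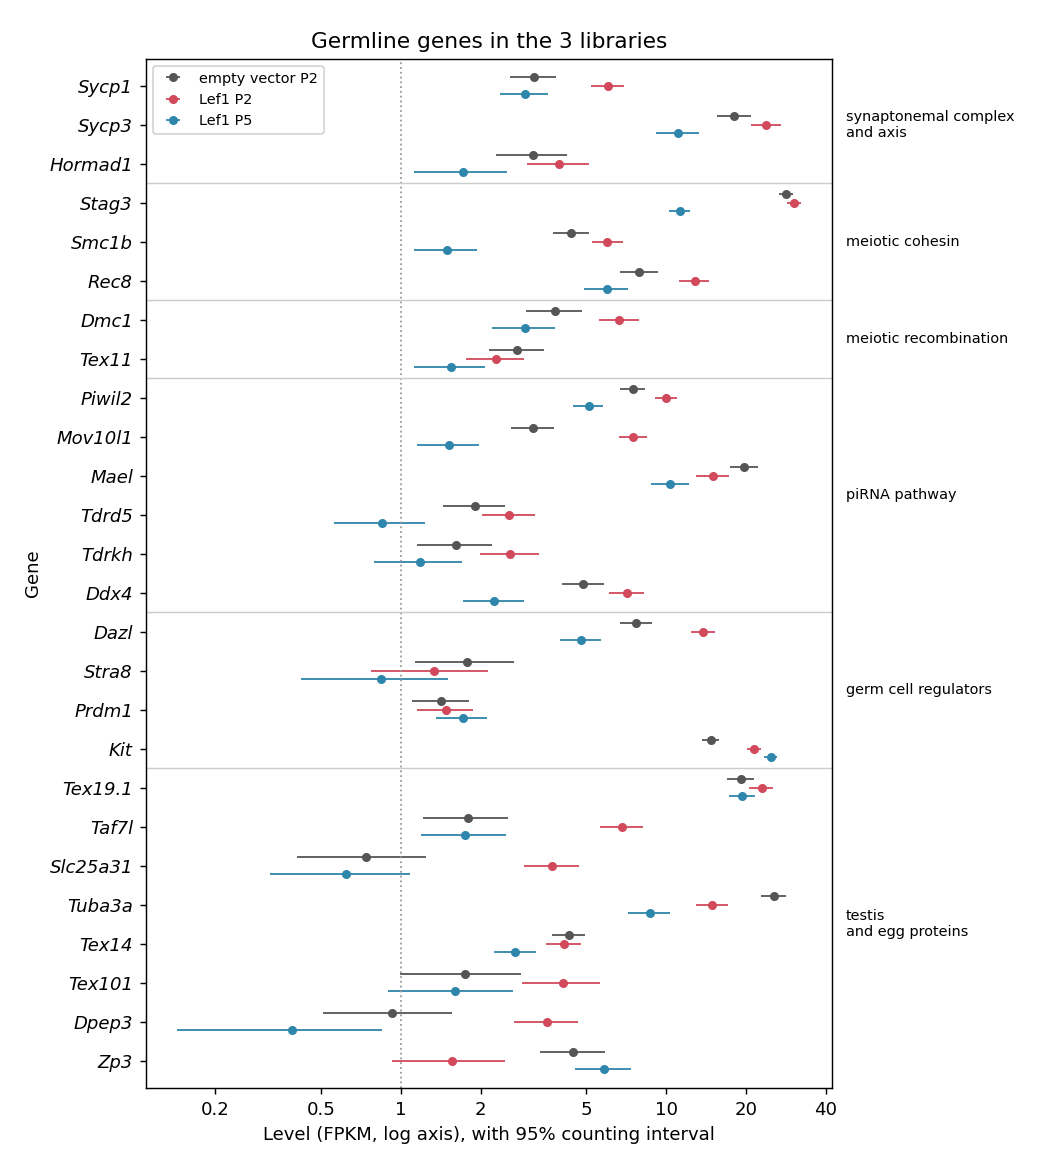
Level in FPKM (log axis) of the 26 measured germline genes in the 3 libraries, grouped by role; points are single libraries, bars are 95% counting intervals and the dotted line marks 1 FPKM. Lef1 P5 is the lowest library for 22 of the 26 genes, and Kit, at 14.7 to 24.8 FPKM, is highest there.

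Calls of higher and lower required that the log2 ratio of (FPKM + 1) be at least 1 in size, with at least 3 FPKM and 20 expected reads in the higher library. Between the Lef1 libraries, 9 of the 26 measured genes (34.6%) were called lower at passage 5, against 5.64% of all measured genes. They were Dazl, Ddx4, Dpep3, Mov10l1, Slc25a31, Smc1b, Stag3, Sycp3 and Taf7l. Because the genes were chosen with earlier results of these data known, the gap between these shares is not a test of the set. Only Zp3 was called higher. The sequence around the transcription start was available for 29 of the 32 genes from RefSeq (GRCm38.p6; 250 bases before the start and 50 after, first window listed for a gene). Piwil2, Tex11 and Spo11 were not matched. The E-box CACGTG, which Max-containing dimers recognise, was found in 12 of the 29 windows (41.4%), against 10.5% of the 10284 windows of measured genes and 7.24% of all 27025 windows. The E2F motif GGCGGGAA occurred in 5 of 29 (17.2%), against 4.42% of measured and 2.24% of all windows. The T-box motif TCACACC occurred in 3 (10.3%, against 3.39% and 3.96%). The TCF/LEF motif was searched as CTTTGAT, as CTTTGAA and also as CTTTGTT, and occurred in 2 windows, those of Ddx4 and Tdrkh (6.9%, against 9.25% and 13.9%). Both strands were searched and none of these motifs contains another. The windows held a median of 20 CpG dinucleotides, against 21 in measured genes and 7 in all windows.

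Of the 9 genes called lower between the Lef1 libraries, 6 had an E-box in the window, and these are printed with Zp3, the gene with an E-box that was called higher. Sequences run 5′ to 3′ along the gene, with matches to the E-box and the E2F motif on either strand in capitals. The reads were aligned to another build, mm8, so the GRCm38.p6 positions serve only to locate the windows: Slc25a31 at chr3:40708621-40708920, plus strand, Taf7l at chrX:134476441-134476740, minus strand, Mov10l1 at chr15:88982744-88983043, plus strand, Ddx4 at chr13:112652261-112652560, minus strand, Stag3 at chr5:138280259-138280558, plus strand, Sycp3 at chr10:88459337-88459636, plus strand, and Zp3 at chr5:135979855-135980154, plus strand.
Slc25a31: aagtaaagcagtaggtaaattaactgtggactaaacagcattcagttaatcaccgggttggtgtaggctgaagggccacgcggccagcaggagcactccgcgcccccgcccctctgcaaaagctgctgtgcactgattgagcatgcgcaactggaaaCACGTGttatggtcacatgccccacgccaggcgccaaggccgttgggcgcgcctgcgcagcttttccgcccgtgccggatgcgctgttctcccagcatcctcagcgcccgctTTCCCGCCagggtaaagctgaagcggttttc
Taf7l: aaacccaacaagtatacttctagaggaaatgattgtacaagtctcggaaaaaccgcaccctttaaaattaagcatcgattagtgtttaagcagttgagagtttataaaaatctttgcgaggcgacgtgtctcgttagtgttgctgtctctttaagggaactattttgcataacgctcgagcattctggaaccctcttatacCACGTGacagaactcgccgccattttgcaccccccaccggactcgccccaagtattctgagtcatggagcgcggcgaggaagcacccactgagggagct
Mov10l1: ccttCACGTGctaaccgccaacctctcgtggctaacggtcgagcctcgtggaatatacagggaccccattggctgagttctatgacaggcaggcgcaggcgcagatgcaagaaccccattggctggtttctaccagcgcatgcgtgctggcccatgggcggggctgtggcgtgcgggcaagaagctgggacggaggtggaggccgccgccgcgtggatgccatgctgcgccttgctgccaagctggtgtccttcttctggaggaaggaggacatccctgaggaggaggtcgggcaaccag
Ddx4: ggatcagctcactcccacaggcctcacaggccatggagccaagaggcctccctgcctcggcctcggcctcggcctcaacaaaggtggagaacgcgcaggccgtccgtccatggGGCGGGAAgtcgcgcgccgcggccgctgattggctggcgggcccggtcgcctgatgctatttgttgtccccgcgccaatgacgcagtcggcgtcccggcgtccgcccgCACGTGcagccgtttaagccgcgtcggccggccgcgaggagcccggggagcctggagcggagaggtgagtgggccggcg
Stag3: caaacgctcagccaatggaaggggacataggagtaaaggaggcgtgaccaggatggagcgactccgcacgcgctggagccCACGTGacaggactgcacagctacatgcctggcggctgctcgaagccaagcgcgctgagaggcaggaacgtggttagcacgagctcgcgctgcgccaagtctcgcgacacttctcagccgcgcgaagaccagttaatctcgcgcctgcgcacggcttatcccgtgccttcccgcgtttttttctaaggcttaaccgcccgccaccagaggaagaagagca
Sycp3: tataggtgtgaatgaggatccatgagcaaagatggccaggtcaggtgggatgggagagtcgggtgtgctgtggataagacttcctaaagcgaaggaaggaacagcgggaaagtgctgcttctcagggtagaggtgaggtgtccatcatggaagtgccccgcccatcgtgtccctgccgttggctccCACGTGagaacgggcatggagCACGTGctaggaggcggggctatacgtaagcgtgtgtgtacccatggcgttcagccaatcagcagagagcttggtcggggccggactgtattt
Zp3: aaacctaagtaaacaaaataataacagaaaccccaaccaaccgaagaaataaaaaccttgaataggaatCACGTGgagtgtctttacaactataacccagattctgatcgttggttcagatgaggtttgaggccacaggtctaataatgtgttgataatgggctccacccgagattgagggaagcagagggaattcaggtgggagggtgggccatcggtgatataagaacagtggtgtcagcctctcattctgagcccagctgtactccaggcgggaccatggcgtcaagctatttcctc
Slc25a31 and Ddx4 carry both motifs, Sycp3 has 2 E-boxes, and the other windows have 1 E-box and no E2F match. Among measured germline genes with a window, 6 of the 10 with an E-box (60.0%) and 3 of the 14 without (21.4%) were called lower in Lef1 P5 against Lef1 P2, with median log2 ratios of -1.18 and -0.83. Slc25a31, 1 of the 6, and Dpep3, 1 of the 3, were counted as measured only through Lef1 P2, the higher library here. Sycp3, 1 of the 6, lost its call under both rescalings, and Rec8, without an E-box, missed the call at -0.99. In Lef1 P5 against empty vector P2, 1 of the 10 with an E-box and 2 of the 14 without were called lower. Among measured genes outside the set, 0.839% with an E-box and 0.936% without were called lower in that comparison. In Lef1 P2 against empty vector P2 the medians were 0.42 with and 0.42 without, and 3 of the 10 and 1 of the 14 were called higher. Outside the set, 4.94% with an E-box and 5.29% without were called higher there. Of the germline genes called higher, Slc25a31, with an E-box, and Dpep3, without, were counted as measured only through Lef1 P2. Among measured genes outside the set, 63 of 1073 with an E-box (5.87%) and 515 of 9187 without (5.61%) were called lower in Lef1 P5 against Lef1 P2. The difference by E-box was not tested. A match is a description of letters, and binding was not measured.

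**Figure D2:**
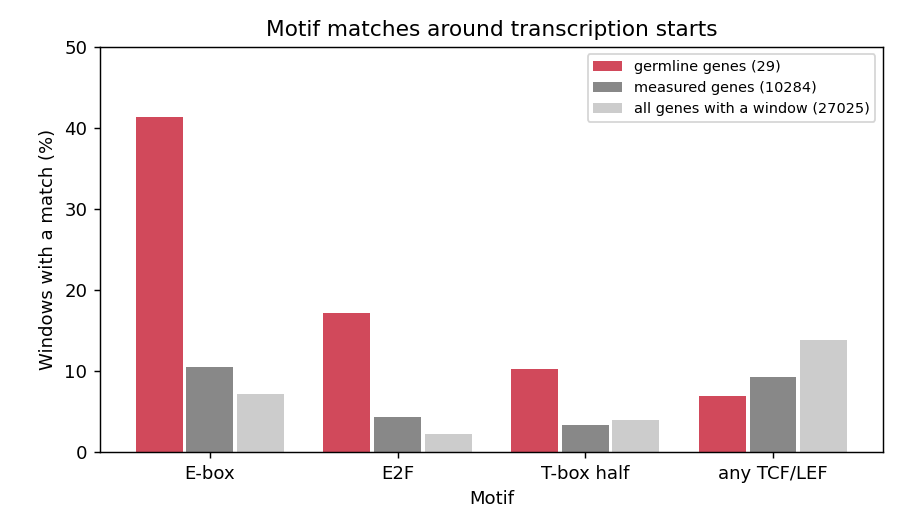
Share of windows around the transcription start that hold each motif, in percent, for the 29 germline genes, for 10284 measured genes (germline genes included) and for all 27025 genes with a window. The E-box bar stands at 41.4% for the germline genes and at 10.5% for measured genes, whereas TCF/LEF forms stand at 6.9% and 9.25%.

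All 3 meiotic cohesin genes were lowest at passage 5 of the Lef1 culture. Stag3 was the highest germline gene in both passage 2 libraries, whereas Kit was the highest in Lef1 P5. Stag3, the meiosis-specific stromal antigen subunit (Entrez gene 50878), had 28.2 FPKM (95% counting interval 26.6 to 29.97) with the empty vector, then 30.4 FPKM (28.7 to 32.2) in Lef1 P2 and just 11.2 FPKM (10.2 to 12.3) at passage 5. The passage 2 libraries had overlapping intervals, and Lef1 P5 lay 2.70-fold under Lef1 P2 and 2.51-fold under empty vector P2. Smc1b, the meiotic SMC subunit (Entrez gene 140557), was at 4.38, 6.0 and 1.49 FPKM in the same order of libraries. Its level in Lef1 P5 was 4.03-fold under Lef1 P2 and 2.94-fold under empty vector P2. Rec8, the cleavable kleisin subunit, was at 7.92, 12.8 and 5.96 FPKM, and with a log2 ratio of -0.99 between the Lef1 libraries it fell just short of a call, whereas Sycp3 with -1.04 just passed. Of subunits used in mitosis, Stag1 was at 16.4, 16.9 and 18.3 FPKM, Stag2 at 22.97, 25.5 and 23.96 FPKM, Smc1a at 53.3, 49.05 and 59.5 FPKM and Rad21 at 121, 117 and 113 FPKM, none of them called. By counting intervals, Rad21 was lower and Smc1a higher in Lef1 P5 than in empty vector P2, while Stag1 and Stag2 overlapped.

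Genes of the chromosome axis and the synaptonemal complex took the same order of libraries. Sycp3, which builds the lateral elements, was at 18.1 FPKM in empty vector P2, 23.8 FPKM in Lef1 P2 and 11.1 FPKM in Lef1 P5. Its call between the Lef1 libraries was lost under median-of-ratios and TMM scaling, although the intervals as deposited did not overlap. Sycp1, the transverse filament that bridges the paired axes, was at 3.17, 6.03 and 2.93 FPKM, so that only Lef1 P2 stood apart and the other libraries overlapped. Hormad1, an axis protein that monitors pairing, was at 3.14, 3.95 and 1.72 FPKM. Sycp2, the partner of Sycp3 in the axis, stayed under 1 FPKM at 0.40, 0.77 and 0.19 FPKM, from 21, 40 and 10 reads.

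Recombination genes were weak. The meiotic recombinase gene Dmc1 was at 3.80 FPKM in empty vector P2, 6.66 FPKM in Lef1 P2 and 2.93 FPKM in Lef1 P5, and Lef1 P2 did not overlap with either of the others. The length used for Dmc1 differed between libraries, at 2026 bases, 2205 bases and 2015 bases, and the reads were 69, 131 and 54. Tex11, an X-linked gene for crossover formation, was at 2.75, 2.28 and 1.54 FPKM, a decline in which neighbouring libraries overlapped. Spo11, which makes the breaks that start recombination, was listed in no library. At these depths, 3 reads from a 1 kb transcript equal 0.320 to 0.327 FPKM, taken as a rough limit for a gene of that length with a count of 0. The 95% counting interval for a count of 0 reaches somewhat higher.

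In the piRNA pathway Mov10l1 spanned a wider range than the PIWI gene Piwil2. Mov10l1, the helicase that binds piRNA precursors (Entrez gene 83456), had 3.14 FPKM (2.59 to 3.77) with the empty vector, 7.53 FPKM (6.67 to 8.47) with Lef1 at passage 2 and 1.52 FPKM (1.15 to 1.97) at passage 5. None of these intervals overlap, and the passage 5 level was 4.95-fold under the passage 2 level of the Lef1 culture. Mov10l1 was called higher in Lef1 P2 against empty vector P2 (log2 ratio 1.04), a call lost under median-of-ratios and TMM scaling. Its somatic counterpart Mov10 was at 58.4, 44.3 and 35.9 FPKM in the same order of libraries, with no overlap of intervals and no call. The PIWI gene Piwil2 was at 7.49, 10.01 and 5.10 FPKM, the same order with a smaller span. Ddx4, the germ cell helicase also known as vasa, was at 4.88, 7.11 and 2.25 FPKM, and Lef1 P5 lay 3.16-fold under Lef1 P2.

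Mael, a nuage protein needed for transposon silencing, departed from this order. It was highest in empty vector P2, at 19.7 FPKM, with 15.0 FPKM in Lef1 P2 and 10.3 FPKM in Lef1 P5, and no intervals overlapped. The Tudor-domain genes were weak. Tdrd5 was at 1.91, 2.56 and 0.85 FPKM and Tdrkh, a mitochondrial Tudor protein that acts in piRNA trimming, at 1.62, 2.59 and 1.18 FPKM. Tdrd1 was at 0.54, 0.88 and 0.53 FPKM and Tdrd9 at 0.23, 0.67 and 0.09 FPKM, the last from 4 reads in Lef1 P5. Asz1, a mitochondrial scaffold of the pathway, rested on 1 read in each passage 2 library and was not listed in Lef1 P5, where 3 reads would have been 0.18 FPKM.

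The regulators of germ cell identity did not move as a block. Dazl, an RNA-binding protein that licenses germ cells for meiosis (Entrez gene 13164), had 7.70 FPKM (6.68 to 8.83) with the empty vector, 13.8 FPKM (12.4 to 15.3) with Lef1 at passage 2 and 4.76 FPKM (3.97 to 5.66) at passage 5. All 3 libraries were separated beyond counting error, and Lef1 P5 was 2.90-fold under Lef1 P2. Kit, the stem cell factor receptor that primordial germ cells need to survive and that other cell types also carry (Entrez gene 16590), was at 14.7, 21.4 and 24.8 FPKM. It was the measured germline gene whose intervals put both Lef1 libraries above empty vector P2 and Lef1 P5 above Lef1 P2, though no ratio reached the call. Prdm1, which specifies primordial germ cells and also acts in endoderm, was at 1.42, 1.48 and 1.71 FPKM with overlapping intervals. Stra8, the retinoic acid responsive gene of meiotic entry, was at 1.78, 1.33 and 0.84 FPKM from 23, 17 and 11 reads, again with overlap. Nanos3, which protects primordial germ cells from death, was at 0.65, 0.98 and 0.95 FPKM from at most 6 reads.

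Proteins of testis and egg held large differences in both directions. Slc25a31, the germ cell ADP/ATP carrier (Entrez gene 73333), had 0.74 FPKM (0.405 to 1.24) with the empty vector, 3.72 FPKM (2.90 to 4.70) with Lef1 at passage 2 and 0.62 FPKM (0.320 to 1.08) at passage 5. Only Lef1 P2 stood apart, at 5.03-fold (2.81 to 9.66) the empty-vector level and 6.0-fold the passage 5 level. Of its somatic counterparts, Slc25a5 was at 461, 199.5 and 400.1 FPKM, called lower in Lef1 P2 against empty vector P2 and higher in Lef1 P5 against Lef1 P2. Slc25a4, another somatic carrier, was at 116, 182 and 206 FPKM, higher in Lef1 P2 than in empty vector P2 by its intervals, with no call. Taf7l, an X-linked paralog of the general transcription factor subunit Taf7 (Entrez gene 74469), was at 1.79, 6.81 and 1.75 FPKM, again with Lef1 P2 alone standing apart, while Taf7 was at 43.8, 43.3 and 50.8 FPKM. Dpep3, a membrane dipeptidase of testis, was at 0.93, 3.57 and 0.39 FPKM from 14, 53 and 6 reads, and its partner Tex101, a germ cell surface protein, at 1.74, 4.07 and 1.60 FPKM.

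Tuba3a, a testis alpha-tubulin gene, declined stepwise from 25.4 FPKM in empty vector P2 through 14.9 FPKM in Lef1 P2 to 8.67 FPKM in Lef1 P5, with no overlap of intervals. Its reads were not whole numbers and the near-identical Tuba3b was at 0.51, 0.44 and 0.15 FPKM, so the split of reads between these copies is uncertain. The abundant somatic alpha-tubulin gene Tuba1b was at 1099, 479 and 1270 FPKM, called lower in Lef1 P2 against empty vector P2 and higher in Lef1 P5 against Lef1 P2. Tex14, needed for the bridges between germ cells, was at 4.29, 4.11 and 2.70 FPKM. Tex19.1, which restrains retrotransposons in germ cells, placenta and embryonic stem cells, was the steadiest of the stronger genes at 19.09, 22.9 and 19.3 FPKM, with intervals that overlapped in every comparison. Zp3, the egg coat gene (Entrez gene 22788), was lowest in Lef1 P2 and highest in Lef1 P5, at 4.47 FPKM (3.34 to 5.86), 1.56 FPKM (0.925 to 2.47) and 5.82 FPKM (4.53 to 7.37). Lef1 P2 was 2.87-fold under empty vector P2, from 18 against 52 reads, and Lef1 P5 was 3.73-fold above Lef1 P2.

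**Figure D3:**
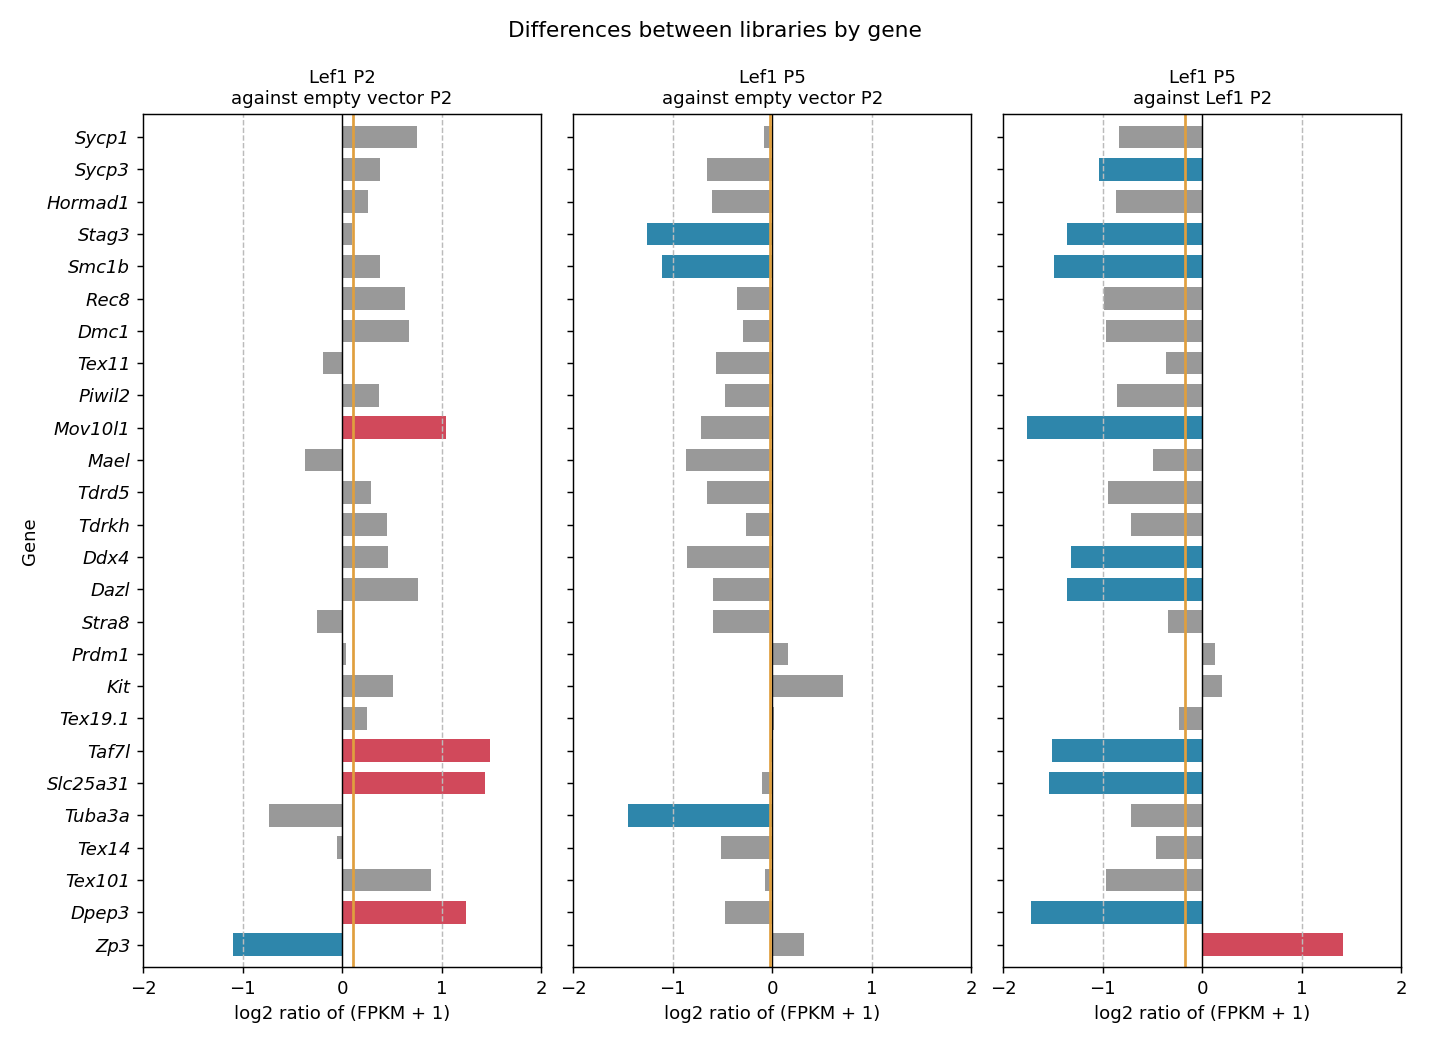
Log2 ratio of (FPKM + 1) for the 26 measured germline genes in each comparison. Red bars are called higher, blue bars called lower and grey bars not called; dashed lines mark a ratio of 1 in size and the orange line the median of all measured genes. Blue bars number 1, 3 and 9 from left to right and red bars 4, 0 and 1.

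At passage 2 the cultures differ, as labelled, by what was introduced. Slc25a31, Taf7l, Dpep3 and Mov10l1 were called higher, 4 of the 26 measured genes (15.4%, against 5.36% of all measured genes). Of these, Slc25a31 and Dpep3 were counted as measured only through Lef1 P2, and Mov10l1 lost its call under median-of-ratios and TMM. Zp3 was called lower (3.85%, against 1.5% of all). At any size 20 of the 26 were higher (59.5% of all) and 6 lower (40.4% of all), and 18 and 8 under median-of-ratios or TMM, where Stag3 and Prdm1 changed side. Intervals did not overlap for 13 higher genes (against 33.0% of all) and for 3 lower ones (11.5%, against 19.5%). The median log2 ratio was 0.38, which is 0.26 above the median of all measured genes. That median was 0.11 as deposited and shifted by -0.14 under either rescaling, so values relative to it are given. Over all measured genes 691 were called higher and 194 lower as deposited, 502 and 304 under median-of-ratios and 509 and 305 under TMM.

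Between the passage 5 Lef1 culture and the empty-vector culture, Lef1 and passage cannot be told apart. Smc1b, Stag3 and Tuba3a were called lower, 3 of the 26 (11.5%, against 1.01% of all), and 0 were called higher (against 1.1% of all). No test was made, and by counting intervals Kit was the 1 gene above (3.85%, against 14.3% of all). By the same intervals 12 were lower (46.2%, against 18.0% of all): Dazl, Ddx4, Mael, Mov10l1, Piwil2, Smc1b, Stag3, Sycp3, Tdrd5, Tex11, Tex14 and Tuba3a. At any size 4 were higher (47.0% of all) and 22 lower (52.8% of all). The median log2 ratio was -0.50, or -0.48 relative to all measured genes. Both comparisons share the empty-vector library. Genes that led the first, such as Taf7l with a log2 ratio of 1.49 and Slc25a31 with 1.44, stood at -0.02 and -0.10 in the second.

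Between the Lef1 libraries, passage 5 against passage 2, the shift was the largest of the 3 comparisons. The series has no empty-vector library at passage 5, and Lef1 itself was at 135 FPKM in Lef1 P2 and 214 FPKM in Lef1 P5. Passage and Lef1 level therefore cannot be told apart here. Mov10l1 (log2 ratio -1.76), Dpep3 (-1.72), Slc25a31 (-1.54), Taf7l (-1.51) and Smc1b (-1.49) led the 9 genes called lower, followed by Dazl, Stag3, Ddx4 and Sycp3. Dpep3 and Slc25a31 were counted as measured only through Lef1 P2, the higher library here. Zp3 was called higher (3.85%, against 1.54% of all). At any size 23 of the 26 were lower (63.0% of all) and 3 higher (36.9% of all), and these counts were the same under both rescalings. Over all measured genes 199 were called higher and 727 lower as deposited, 380 and 450 under median-of-ratios and 362 and 473 under TMM. Intervals were non-overlapping and lower for 20 (76.9%, against 36.4% of all) and higher for Kit and Zp3 (7.69%, against 18.4%). The median log2 ratio was -0.90, or -0.73 relative to all measured genes. Against the 9606 measured genes no higher than Stag3 at 30.4 FPKM, a reference added after the data were seen, it was -0.66. With a pseudocount of 5 FPKM 1 lower call was left (3.85%), against 1.4% of all measured genes.

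**Figure D4:**
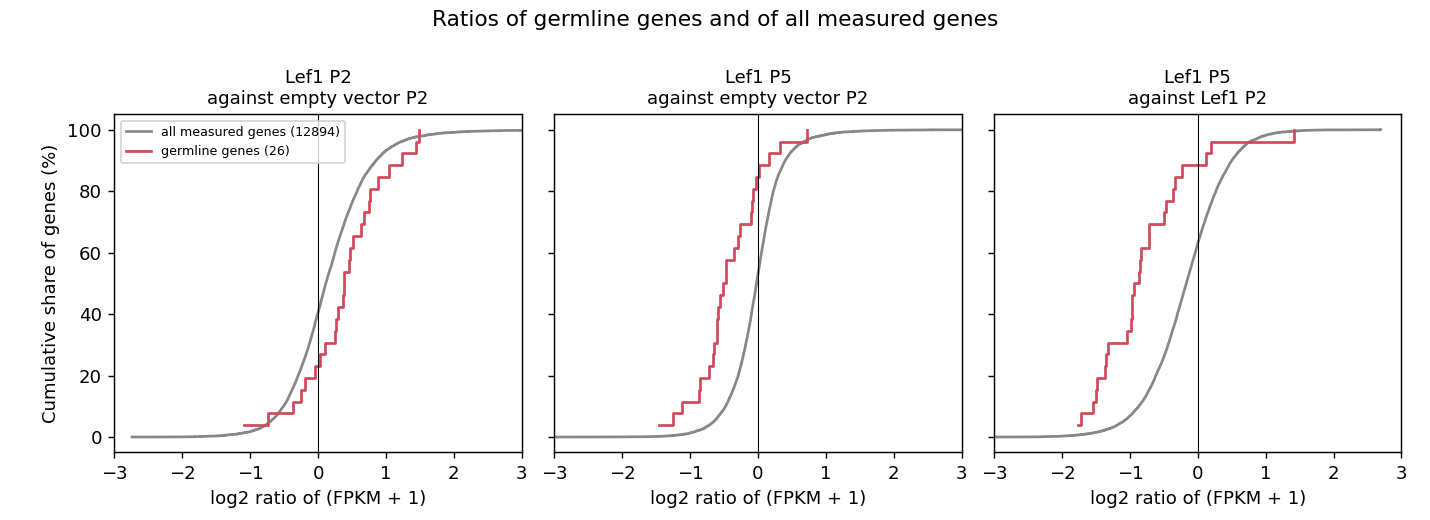
Cumulative share of genes, in percent, by log2 ratio of (FPKM + 1), for the 26 measured germline genes (red) and all 12894 measured genes (grey) in each comparison. The medians, read at 50% of genes, are 0.38, -0.50 and -0.90 against 0.11, -0.02 and -0.17.

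Other genes of meiosis moved with them in part. Of 37 further meiosis genes 28 were measured. All 28 reached 1 FPKM in Lef1 P2, but 18 did in empty vector P2 and 18 in Lef1 P5. Some, such as Terb2, were thus counted only through Lef1 P2, which favours that library in the calls and medians below. In Lef1 P2 against empty vector P2, 3 were called higher (against 5.36% of all measured genes) and 0 lower (1.5%): the telomere attachment gene Terb2 (0.42 and 3.03 FPKM), the synaptonemal complex gene Syce3 (2.85 and 7.11 FPKM) and Brme1 (1.16 and 4.04 FPKM), a partner in meiotic recombination. In Lef1 P5 against Lef1 P2, 6 of the 28 were called lower (against 5.64% of all) and 0 higher (1.54%), among them Terb2 (log2 ratio -1.52), Syce3 (-1.31) and Brme1 (-1.13). Rec114, a partner of the break machinery, was at 14.1, 9.57 and 4.12 FPKM in the 3 libraries, and Meioc, which sustains the meiotic programme, at 8.69, 7.04 and 2.99 FPKM. Both were called lower in Lef1 P5 against either passage 2 library, and they were the 2 of 28 called lower against empty vector P2 (1.01% of all). The list's median relative to all genes was 0.24, -0.03 and -0.32 in the 3 comparisons. Sgo2a, a protector of centromeric cohesion, was at 30.1, 38.4 and 30.6 FPKM and was not called, nor was Mnd1, a recombination cofactor, at 41.2, 35.2 and 38.1 FPKM.

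Of 21 other piRNA pathway genes 17 were measured, and 1 was called in any comparison (5.64% of all were called in its direction): Gpat2, a mitochondrial acyltransferase, at 5.50, 7.24 and 2.64 FPKM, called lower in Lef1 P5 against Lef1 P2. Rnf17, a Tudor-domain gene, was at 14.3, 22.9 and 14.1 FPKM. The list's median relative to all genes was -0.07, -0.04 and -0.22. In the same order, the further meiosis genes lay at 0.24, -0.03 and -0.32, and the germline genes at 0.26, -0.48 and -0.73. All of these lists were chosen with earlier results of these data known, and the part of that choice in the medians was not tested.

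Genes of primordial germ cells, many of them shared with embryonic stem cells, took another course. Of 17 genes 16 were measured. Ifitm1 (193, 47.1 and 64.7 FPKM) and Ifitm3 (171, 52.04 and 172 FPKM), interferon-induced membrane genes of early germ cells, were called lower in Lef1 P2 against empty vector P2, 2 of the 16 (against 1.5% of all). Ifitm1 was also called lower in Lef1 P5, while Ifitm3 and Dppa2 (34.4, 19.5 and 45.3 FPKM) were called higher in Lef1 P5 against Lef1 P2 (against 1.54% of all). The specification factor Tfap2c (12.4, 12.3 and 9.96 FPKM) was not called. The list's median relative to all genes was -0.29, 0.09 and 0.42, opposite in sign to the germline genes in each comparison. Oocyte genes were largely silent, with 3 of 17 measured. Of these, Ooep (75.5, 66.2 and 79.97 FPKM) and Sohlh2 (17.2, 18.5 and 8.76 FPKM), were the strongest.

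Genes that repress germline genes in embryonic stem cells were all measured (24 of 24). None was called in the comparisons with empty vector P2. In Lef1 P5 against Lef1 P2, 3 of the 24 were called higher (against 1.54% of all): the corepressor gene Trim28 (354 and 716 FPKM), the histone deacetylase gene Hdac1 (65.9 and 141 FPKM) and the DNA methyltransferase gene Dnmt3b (65.6 and 145 FPKM). The E-box and E2F binding subunits were not called: Max was at 39.6, 29.7 and 40.6 FPKM in the same order of libraries, Mga at 19.0, 29.6 and 17.8 FPKM and E2f6 at 7.91, 10.5 and 10.8 FPKM. The list's median relative to all genes was -0.32, 0.09 and 0.37. In Lef1 P2 against empty vector P2, the 13 measured endoderm markers were all called higher, with a median 3.23 above all genes. In Lef1 P5 against Lef1 P2 they lay 1.65 below. Their part in the germline values was not tested.

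**Figure D5:**
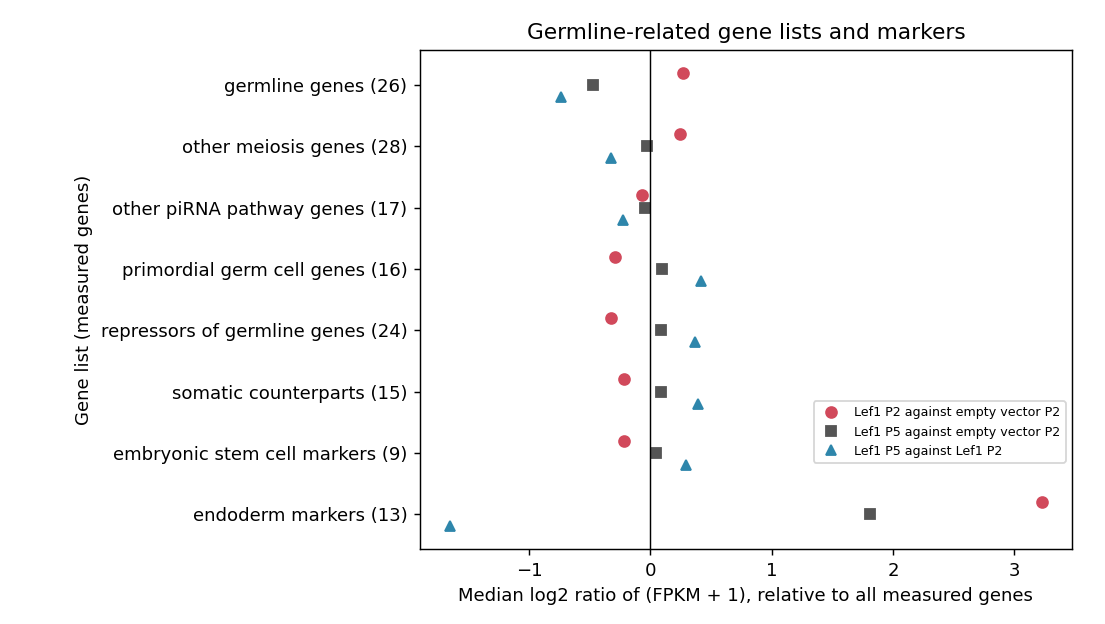
Median log2 ratio of (FPKM + 1) of each gene list minus that of all measured genes, for the 3 comparisons; the number of measured genes stands beside each list. Germline genes lie at 0.26, -0.48 and -0.73, and endoderm markers at 3.23, 1.81 and -1.65.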

How the data were processed

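RNA-seq gene tables of 3 libraries were used, 1 per group. Per the file headers, genes carry Entrez numbers with transcript names, lengths, expected counts and FPKM. The expected counts deposited by the authors are estimated reads and need not be whole. The FPKM values of the authors are per length and library. The submitters' processing notes name Bowtie 0.12.2 and the build mm8. The counting program and strand setting: not given in the sources used here. A gene missing from a table was taken as 0. Symbols came from a RefSeq table of GRCm38.p6 (17951 of 17997 numbers matched), used for names only.

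FPKM values were used as deposited, with a pseudocount of 1. Exact Poisson intervals (95%) came from the expected counts. With 1 library per group no count model was fitted and no p-value is given. Alternatives covered pseudocounts, minimum levels, the fold threshold, CPM, median-of-ratios and TMM (edgeR 4.0.16, on the expected counts). The calling code was run on simulated counts with Poisson noise only, where well-counted genes changed by more than the call threshold. That run does not show how calls near the thresholds behave. All 32 genes are named, and from the other lists up to 3 called genes with the highest and 3 with the lowest ratios, or genes at 10 FPKM or more, picked among these after their values were seen. The members and lists were chosen with earlier results of these data known. Amplified reads are not independent molecules, which the intervals leave out.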

Additional observations from a re-analysis of the deposited data

How the results depend on the processing

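In Lef1 P2 against empty vector P2, the germline genes called higher numbered 4 as deposited, 0 with a pseudocount of 5 FPKM, 0 with a minimum of 10 FPKM and 9 with a fold threshold of 1.5, and those called lower 1, 0, 0 and 2. Over all measured genes 691, 245, 357 and 1864 were higher and 194, 83, 121 and 855 lower. The median of the germline genes relative to all genes was 0.26 as deposited, 0.17 with a pseudocount of 5, 0.35 over germline genes at 3 FPKM or more and 0.18 against genes no higher than the highest germline gene, a reference chosen after seeing the data. In Lef1 P5 against empty vector P2, 3 were called lower as deposited, 5 with a pseudocount of 0.1 and 9 with a fold threshold of 1.5, which also called 1 higher. Over all measured genes 130, 222 and 602 were lower, and the threshold of 1.5 called 436 higher (3.38%, against 3.85% of the germline genes). The median of -0.48 became -0.64 and -0.23 with pseudocounts of 0.1 and 5, -0.60 with CPM and -0.34 over all listed germline genes. In Lef1 P5 against Lef1 P2, 9 called lower became 14 with a pseudocount of 0.1, 1 with 5, 3 with a minimum of 10 FPKM and 16 with a threshold of 1.5. Over all measured genes 727 became 1004, 180, 358 and 2116. The 1 called higher became 0 with a pseudocount of 5 and with a minimum of 10 FPKM. Over all measured genes 199 called higher became 101 and 145. The median of -0.73 became -0.90 and -0.40 with pseudocounts of 0.1 and 5. No median changed sign under any alternative, and of 702 values of single genes 64 changed their call and 0 reversed a called direction. No paired analysis was possible because each group has 1 library. As a rough limit, a count of 0 was taken to allow up to 0.320 to 0.327 FPKM for a transcript of 1 kb, and less for a longer one. The 95% counting interval for a count of 0 reaches somewhat higher.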
